A study of Mus musculus with 24 samples.

Results

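The endoplasmic reticulum (ER) chaperones and the genes of the unfolded protein response were followed as 31 named genes, found by symbol among 56748 genes in a table of FPKM values. Of the 31, 19 encode folding chaperones and folding enzymes, 7 belong to ER-associated degradation, 3 are stress sensors or their transcription factor, and 2 serve entry into the ER and export from it. The 24 RNA-seq libraries came from C2C12, a continuously growing line of mouse myoblasts, infected with a lentivirus from which doxycycline induces uncoupling protein 1 (UCP1). There were 6 groups of 4 libraries. Dox_OOA cells received doxycycline and then 1 µM oligomycin, an inhibitor of the mitochondrial ATP synthase, with 300 µM oleic acid, and OOA cells received water and the same treatment. Dox_OA and OA cells received 300 µM oleic acid after doxycycline or water, and Dox_BSA and BSA cells received 51 µM bovine serum albumin after doxycycline or water. Doxycycline or water came 24 h after seeding, the treatment 24 h after that, and RNA was taken 16 h into the treatment, per the labels. All groups carry the vector. No group received doxycycline without it, so effects of doxycycline itself and of UCP1 cannot be told apart, and how much albumin the oleic acid groups received is not stated. Whether the 4 libraries of a group stem from separate cultures is not in the labels, so p-values measure only the spread between libraries, which may be technical.

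The ER folds membrane and secreted proteins. Its chaperones, with BiP (Hspa5) at their head, bind unfolded chains, while lectin chaperones and protein disulfide isomerases guide glycoproteins and disulfide bonds. Proteins that fail to fold are sent back to the cytosol and degraded. When unfolded chains accumulate, the unfolded protein response is driven by sensors in the ER membrane. IRE1 (Ern1) splices the messenger of Xbp1, ATF6 is cut to release a transcription factor, and PERK phosphorylates a translation factor and so raises ATF4, the arm shared with other stresses in the integrated stress response. ATF6 and spliced XBP1 are textbook activators of chaperone and degradation genes, through promoter sequences called ER stress response elements. In muscle cells the response has been tied to differentiation.

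Promoters of 4 members are printed because they carry the elements by which these genes are known and because the 4 did not all move alike. In OOA against OA cells Hspa5 and Herpud1 rose, while Hsp90b1 and Creld2 fell. They are from RefSeq (GRCm38.p6), from 250 bases before to 50 bases after the start, 5′ to 3′ on the gene's strand. Capitals mark the matched letters. The ER stress response element was searched as CCAAT, 9 bases of any kind and CCACG, its second form as ATTGG, 1 base and CCACG, the XBP1 site as TGACGTGG and the ATF4 composite site as TGATG, 1 base and AA, each on both strands. CCAAT and ATTGG are each other's reverse complement.
Hspa5 (chr2:34771840-34772139, plus strand): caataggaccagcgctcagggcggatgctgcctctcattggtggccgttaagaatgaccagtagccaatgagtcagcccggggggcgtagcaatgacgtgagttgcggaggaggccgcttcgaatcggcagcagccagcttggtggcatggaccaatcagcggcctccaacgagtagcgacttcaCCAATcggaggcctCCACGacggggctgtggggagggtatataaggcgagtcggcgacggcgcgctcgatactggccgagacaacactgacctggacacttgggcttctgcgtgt
Hsp90b1 (chr10:86705395-86705694, minus strand): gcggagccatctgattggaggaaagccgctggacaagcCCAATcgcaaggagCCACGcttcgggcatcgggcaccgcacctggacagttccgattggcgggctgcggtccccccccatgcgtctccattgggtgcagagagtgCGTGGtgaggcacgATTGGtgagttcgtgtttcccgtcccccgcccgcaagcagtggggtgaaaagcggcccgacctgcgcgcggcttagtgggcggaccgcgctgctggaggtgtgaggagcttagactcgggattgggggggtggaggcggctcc
Creld2 (chr15:88819396-88819695, plus strand): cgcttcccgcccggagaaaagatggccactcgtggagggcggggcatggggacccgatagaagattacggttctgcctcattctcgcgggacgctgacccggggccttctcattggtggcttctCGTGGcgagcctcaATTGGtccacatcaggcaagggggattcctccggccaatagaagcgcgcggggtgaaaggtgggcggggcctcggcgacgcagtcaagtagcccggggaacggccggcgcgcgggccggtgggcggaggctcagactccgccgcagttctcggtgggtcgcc
Herpud1 (chr8:94386179-94386478, plus strand): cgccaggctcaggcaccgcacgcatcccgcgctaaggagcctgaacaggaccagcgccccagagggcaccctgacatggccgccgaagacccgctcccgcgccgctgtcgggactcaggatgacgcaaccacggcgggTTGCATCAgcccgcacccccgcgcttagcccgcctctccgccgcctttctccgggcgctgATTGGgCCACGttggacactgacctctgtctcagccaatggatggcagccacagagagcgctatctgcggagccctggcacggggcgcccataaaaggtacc

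The element began 65 bases before the start of Hspa5 and 126 bases before that of Creld2, where it lay on the other strand. Hsp90b1 held 2, at 212 bases on the gene's strand and at 107 bases on the other. Herpud1 held the second form at 52 bases and an ATF4 composite site at 112 bases on the other strand. A RefSeq window was matched for 26 of the 31 members, and 10 of the 26 (38.5%) held the element, against 37 of 27025 genes with a window (0.137%). Among folding members it was 8 of 16 (50%), namely Hspa5, Hsp90b1, Calr, Canx, Pdia6, Dnajc3, Creld2 and Ero1b, and among degradation and sensor members 2 of 8 (25.0%), Syvn1 and Derl3. The second form was in Dnajb11 and Herpud1, 7.69% of members against 0.0444% of all genes. The XBP1 site was in Sec24d (3.85% against 0.714%) and the ATF4 site in Herpud1 (3.85% against 4.51%). The parts are common. CCAAT alone was in 88.5% of members and 41.1% of all genes, and CCACG alone in 88.5% and 35.5%. Manf, Hyou1, Hspa13, Derl1 and Atf6 had no entry. Only exact letters were counted, so copies of an element with a differing letter are missed. A match is a description of letters, not a bound site.

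Most of the 31 genes were abundant in these myoblasts. Over all libraries P4hb, a disulfide isomerase that is also a subunit of collagen prolyl hydroxylase, averaged 551 FPKM and the calcium-binding lectin chaperone Calr 505 FPKM, ranks 35 and 40 among 21970 protein-coding genes by this level per length. Hspa5 averaged 228 FPKM, Pdia3 226 FPKM, the HSP90 of the ER Hsp90b1 186 FPKM and the membrane lectin chaperone Canx 120.1 FPKM. Among the other roles Herpud1 led at 77.8 FPKM, followed by Derl1 at 49.6, Sec61b at 45.6 and Xbp1 at 40.2 FPKM. The summed FPKM of the 31 genes made up 1.05% to 1.09% of all FPKM in OA libraries, the group with the highest shares, and 0.762% to 0.812% in Dox_OOA libraries, the group with the lowest. Ero1b, the beta form of the ER oxidase, stayed between 1.16 and 1.88 FPKM in every library, and Derl3, a derlin of secretory cells, averaged 0.0894 to 0.258 FPKM over the groups with at most 16 reads in a library. Genes were tested where 4 or more libraries reached 1 FPKM, which kept 12904 genes and all members but Derl3, that is 30 of 31.

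Libraries held 20370651 to 29410667 gene reads, recovered from the FPKM values. Ucp1 averaged 215, 322 and 337 FPKM in Dox_OOA, Dox_OA and Dox_BSA cells, against 4.42, 6.84 and 5.24 FPKM in OOA, OA and BSA cells. All 7 myoblast markers were above 1 FPKM on average in every group, with summed levels of 848 to 1178 FPKM over all libraries and the lowest sums in OOA libraries (848 to 920.2 FPKM, against 973 to 1043 FPKM in OA libraries). Vim made up most of that sum, and the other markers did not move as one. Myf5 averaged 18.6 FPKM in OOA cells and 4.76 FPKM in OA cells, Myod1 25.5 and 38.6 FPKM, Cdh15 14.6 and 25.5 FPKM, and Chrna1 27.2 and 50.3 FPKM, while Des and Itga7 differed little. The 4 adipocyte markers were listed at 0 throughout, and the macrophage and endothelial markers summed to at most 2.51 and 0.135 FPKM. The 4 fibroblast markers summed to 13.3 to 18.1 FPKM over all libraries, with Pdgfra and Dcn above 1 FPKM on average in every group. No library stood apart from its group, with correlations of log2 values between libraries of a group of 0.979 to 0.989. Each fold change below is a log2 change of FPKM + 1 from limma, fitted over all 12904 genes with a mean per group, and a gene was called at a Benjamini-Hochberg adjusted p below 0.05 over all genes in that contrast. Where libraries of 2 groups are said not to overlap, this is a description, not a further test. Called genes tend to show it because they were selected by the test, and its share over all genes is not given.

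Oligomycin moved these genes in both directions. In OOA cells against OA cells 25 of the 30 tested members were called, 10 higher and 15 lower, where 28.5% of all tested genes were called higher and 28.4% lower. Of the 19 folding members 3 rose and 13 fell, with a median log2 change of -0.57, against 0.01 over all genes tested. Of the 6 tested degradation members 4 rose and none fell (median 0.25). The sensors Ern1 and Atf6 and the factor Xbp1, counted together as sensors here and below, all 3 rose (median 0.88). The gene of the sensor PERK is not among the members. Both entry and export members fell (median -0.55). Summed FPKM of the folding members were 1941, 1832, 1789 and 1797 in OOA libraries, against 2677, 2728, 2592 and 2583 in OA libraries. The groups did not overlap, and the means were 1840.1 ± 70.0 and 2645 ± 69.4 FPKM (SD, n = 4 each). P4hb and Calr carried most of that difference, while Hspa5 moved the other way. The degradation members summed to 292 ± 10.1 FPKM in OOA cells and 161 ± 7.38 FPKM in OA cells, a difference carried mostly by Herpud1 and Derl1. The sensors summed to 113 ± 1.85 and 75.4 ± 0.479 FPKM. These are bulk libraries, in which fewer cells of a kind and less RNA per cell cannot be told apart. Proliferation genes and myotube markers moved with the same treatment. All 8 proliferation genes fell (median -2.00), Mki67 to 12.1 FPKM in OOA cells against 50.9 FPKM in OA cells, and the 7 myotube markers summed to 14.9 to 21.2 FPKM in OOA libraries and 38.6 to 63.5 FPKM in OA libraries. Their part in the members' changes was not tested.

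**Figure D1:**
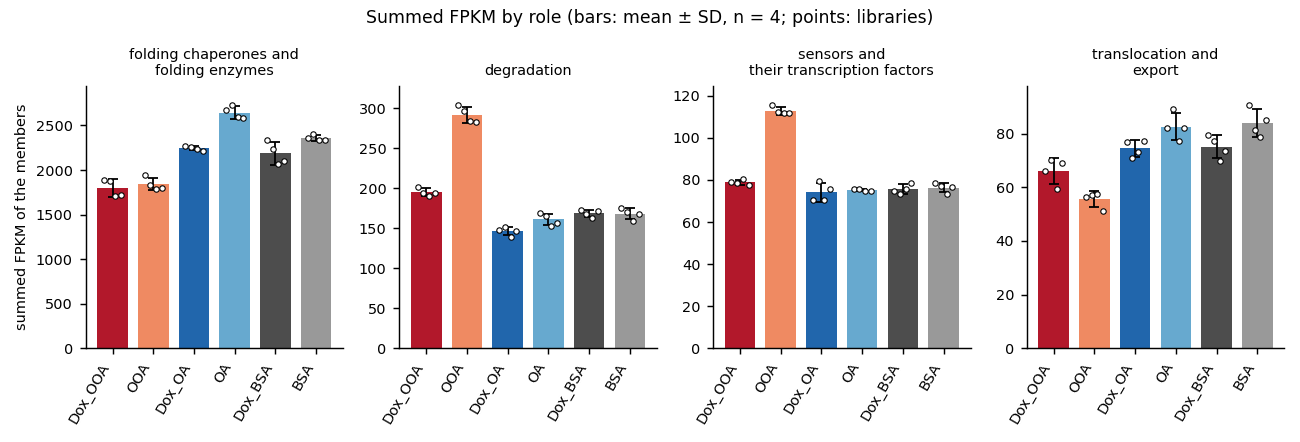
Summed FPKM of the members of each role (y axis, linear from 0) in the 6 groups; bars are means with SD over 4 libraries and points are libraries. The folding sum was lower in OOA than in OA cells (1840.1 against 2645 FPKM) while the degradation and sensor sums were higher. In Dox_OOA cells the folding sum was also low (1799 FPKM) with degradation and sensor sums nearer to the other groups. The similar folding sums of Dox_OOA and OOA cells hold opposite moves, Hspa5 at 163 and 365 FPKM and P4hb at 464 and 359.9 FPKM.

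The folding genes that fell under oligomycin included the most abundant ones. P4hb had 384, 373, 337 and 346 FPKM in OOA libraries, against 719.7, 723, 688 and 659 FPKM in OA libraries (log2 change -0.95, SE 0.05, adjusted p = 9.38e-14). Calr had 411, 395, 394 and 378 FPKM in OOA libraries, against 634, 657, 627 and 634 FPKM in OA libraries (log2 change -0.69, SE 0.05, adjusted p = 4.72e-11). Hsp90b1 had 156, 139, 135 and 132 FPKM in OOA libraries, against 239.7, 241, 230.2 and 237 FPKM in OA libraries (log2 change -0.75, SE 0.04, adjusted p = 3.5e-13). In all 3 genes every OOA library lay below every OA library, by a wide margin. The disulfide isomerases fell together. Pdia3, which works with the lectin chaperones, changed by -0.71 ± 0.04 (log2 ± SE), Pdia4 by -0.44 ± 0.06 and Pdia6 by -0.82 ± 0.07, with adjusted p of 1.65e-12, 1.05e-06 and 2.77e-10.

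Among the folding members the steepest falls were in Sdf2l1, Creld2 and Manf, all known to be induced by ER stress. Sdf2l1, a partner of an ER J-domain protein, had 7.58, 6.43, 6.31 and 5.39 FPKM in OOA libraries, against 20.0, 19.8, 18.1 and 16.3 FPKM in OA libraries (log2 change -1.40, SE 0.15, adjusted p = 5e-08). Creld2, a secreted ER protein with isomerase activity, had 19.4, 19.4, 19.4 and 18.7 FPKM in OOA libraries, against 46.4, 48.9, 45.7 and 41.7 FPKM in OA libraries (log2 change -1.21, SE 0.08, adjusted p = 1.58e-11). Manf, a secreted ER protein that binds BiP, averaged 12.6 ± 0.434 FPKM in OOA cells and 28.4 ± 2.68 FPKM in OA cells (log2 change -1.11, SE 0.07, adjusted p = 5.03e-12). The groups did not overlap in any of the 3. Manf's span overlaps Rbm15b on its strand and Dcaf1 on the other, at 14.5 and 7.70 FPKM on average, so its level rests on how shared reads were assigned, which the labels leave out. The BiP cochaperones Dnajb11 (-0.57 ± 0.07) and Dnajc3 (-0.47 ± 0.05) fell as well, and so did the HSP70-like Hspa13 (-0.49 ± 0.05) and the prolyl isomerase Fkbp2 (-0.68 ± 0.14), with adjusted p of 1.02e-07, 5.71e-08, 3.54e-08 and 0.000245. Canx (-0.08 ± 0.05, adjusted p = 0.149), the cyclophilin Ppib (-0.16 ± 0.07, 0.0694) and Ero1b (0.01 ± 0.08, 0.9) did not pass. On limma-voom with recovered reads Canx and Ppib passed as lower, at -0.12 and -0.19 with adjusted p of 0.0123 and 0.0119.

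Hspa5 rose while P4hb, Calr and Hsp90b1 fell. BiP is the HSP70 of the ER and the usual marker of its stress (ENSMUSG00000026864, chr2:34661982-34667559, plus strand in the files' coordinates, GRCm39 per the submitters' processing notes). It had 375, 349.8, 363 and 373 FPKM in OOA libraries, against 240.4, 252, 228 and 232 FPKM in OA libraries (log2 change 0.62, SE 0.04, adjusted p = 1.85e-12), a 1.53-fold level. Every OOA library lay above every OA library, and all 4 were above every library of the other 5 groups, whose highest was 252 FPKM. The other folding genes called higher changed little. Hyou1, the exchange factor of BiP, averaged 33.5 ± 0.362 FPKM in OOA cells and 31.1 ± 1.18 FPKM in OA cells (log2 change 0.10, SE 0.04, adjusted p = 0.0259), and Dnajb9, a BiP cochaperone that restrains IRE1, averaged 18.2 ± 0.799 and 16.0 ± 0.804 FPKM (log2 change 0.17, SE 0.07, adjusted p = 0.0324). Both lost the call on limma-voom with recovered reads (adjusted p = 0.131 and 0.0738). Dnajb9 also lost it without filtering (0.0739) and when any 1 of 5 libraries was left out (OOA replicates 1, 2 and 4, OA replicates 3 and 4), and Hyou1 when any 1 of 3 was (OOA replicate 3, OA replicates 1 and 3).

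**Figure D2:**
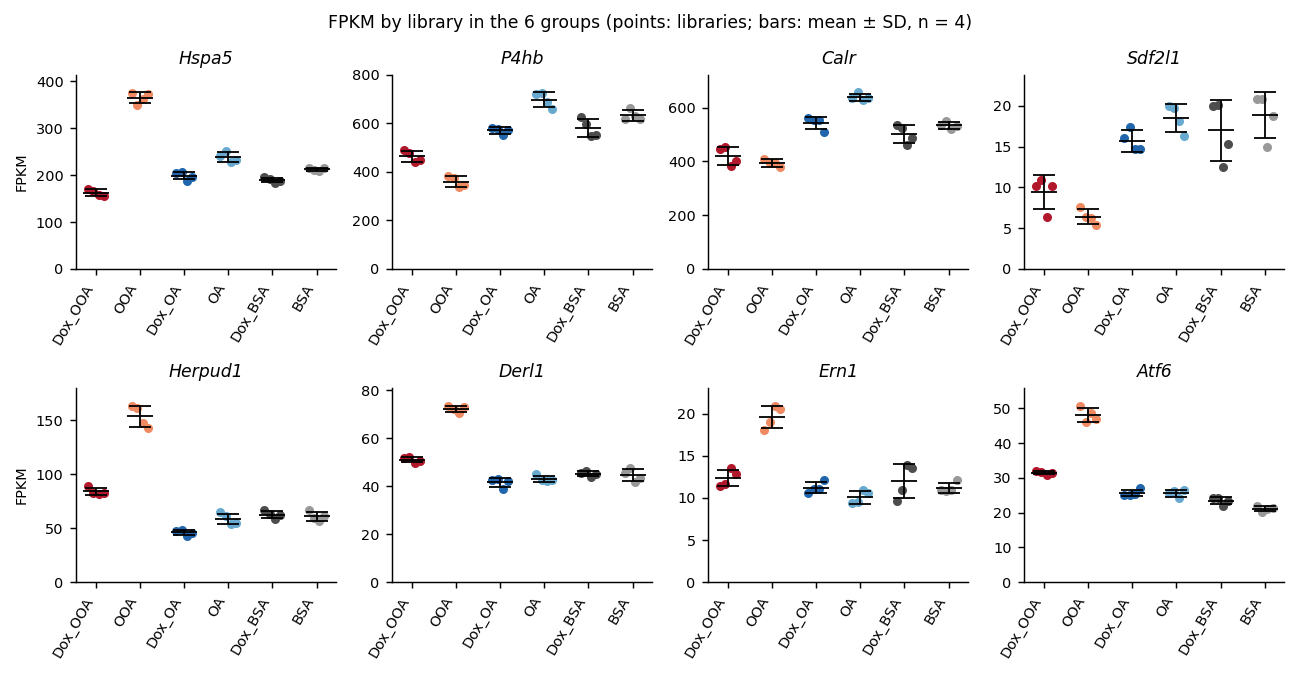
FPKM (y axes, linear from 0) of 8 members in the 6 groups; points are libraries and bars are the mean and SD of 4. Hspa5, Herpud1, Derl1, Ern1 and Atf6 are highest in the 4 OOA libraries, where P4hb and Sdf2l1 are lowest on average, and in Dox_OOA libraries Hspa5 lies below OA libraries while Herpud1 lies above them.

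Degradation members rose or did not pass. Herpud1, an ER membrane protein that helps assemble the degradation complex (ENSMUSG00000031770, chr8:95113066-95122005, plus strand, GRCm39), had 163, 161, 147 and 143 FPKM in OOA libraries, against 64.7, 61.0, 54.3 and 55.2 FPKM in OA libraries (log2 change 1.37, SE 0.06, adjusted p = 4.81e-15). Derl1, a derlin of the channel through which proteins leave the ER, had 73.6, 72.0, 70.3 and 72.8 FPKM in OOA libraries, against 44.9, 42.7, 42.2 and 42.5 FPKM in OA libraries (log2 change 0.73, SE 0.04, adjusted p = 1.34e-13). The libraries of the 2 groups were far apart in both genes. Sel1l, the adaptor of the ubiquitin ligase HRD1, averaged 24.4 ± 0.928 and 19.6 ± 0.967 FPKM in OOA and OA cells (log2 change 0.31, adjusted p = 1.25e-06), and Edem1, which marks misfolded glycoproteins for disposal, 20.2 ± 0.639 and 17.5 ± 0.850 FPKM (0.20, adjusted p = 0.000327). Syvn1, which encodes HRD1 itself, changed by -0.06 ± 0.06 (adjusted p = 0.371), and Derl2 by -0.03 ± 0.05 (0.696). The ends of these genes overlap Mrpl49 and Mis12 on the other strand, and the labels leave out if strand was used in counting.

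The sensors rose. Ern1, which encodes the kinase and nuclease IRE1, had 18.03, 19.1, 20.9 and 20.6 FPKM in OOA libraries, against 9.40, 9.52, 11.0 and 10.5 FPKM in OA libraries (log2 change 0.89, SE 0.08, adjusted p = 4.62e-09). Atf6 had 50.8, 46.2, 48.5 and 47.0 FPKM in OOA libraries, against 25.6, 26.1, 24.2 and 26.5 FPKM in OA libraries (log2 change 0.88, SE 0.04, adjusted p = 5.78e-15). In both genes the OOA libraries were the highest of the series. Xbp1 changed less, at 45.1 ± 2.23 FPKM in OOA cells and 39.6 ± 1.26 FPKM in OA cells (log2 change 0.18, SE 0.06, adjusted p = 0.01). Values per gene do not separate spliced from unspliced Xbp1, so the activity of IRE1 was not read here, nor the cutting of ATF6 protein. Both remaining members fell. Sec61b, a subunit of the channel through which proteins enter the ER, averaged 33.3 ± 2.23 FPKM in OOA cells and 50.1 ± 4.56 FPKM in OA cells (log2 change -0.57, SE 0.09, adjusted p = 6.87e-06), and Sec24d, a cargo adaptor of the COPII coat, 22.3 ± 1.04 and 32.6 ± 1.28 FPKM (log2 change -0.53, SE 0.04, adjusted p = 7.32e-11). Among promoters, 1 of the 7 members called higher that had a window held the ER stress response element, namely Hspa5, and 5 of the 13 called lower did (14.3% and 38.5%). The second form was in 1 of the 7, Herpud1, and in 1 of the 13, Dnajb11. Hyou1, Derl1 and Atf6, called higher, and Manf and Hspa13, called lower, had no window. With so few genes no difference between the sets is drawn.

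With doxycycline, oligomycin gave fewer high members, and no folding member was called higher. In Dox_OOA against Dox_OA cells 20 of 30 members were called, 4 higher and 16 lower, where 16.2% of all tested genes were called higher and 17% lower. Of the 19 folding members 15 fell and none rose (median -0.32, against 0.00 over all genes tested). Of the 6 degradation members 3 rose (median 0.12), of the 3 sensors Atf6 rose (median 0.13), and of the 2 others Sec24d fell. Hspa5 had 169.7, 167, 159 and 155 FPKM in Dox_OOA libraries, against 204, 206, 188 and 197 FPKM in Dox_OA libraries (log2 change -0.29, SE 0.04, adjusted p = 2.41e-06). The Dox_OOA libraries lay below the Dox_OA libraries and below every other library of the series. Hyou1 averaged 21.5 ± 0.807 FPKM in Dox_OOA cells and 27.1 ± 0.817 FPKM in Dox_OA cells (log2 change -0.32, SE 0.04, adjusted p = 8.49e-07). P4hb changed by -0.30 ± 0.05 (adjusted p = 5.04e-05), Calr by -0.37 ± 0.05 (4.23e-06), Hsp90b1 by -0.40 ± 0.04 (1.04e-07) and Sdf2l1 by -0.70 ± 0.15 (0.00098). The 4 folding members that did not pass were Dnajb9 (-0.04), Ero1b (0.01), Ppib (-0.09) and Fkbp2 (-0.36, adjusted p = 0.0505). Fkbp2 passed as lower in 6 of 15 alternatives, limma-voom among them. Canx fell by 0.16 on the log2 scale (adjusted p = 0.0161) and lost the call without Dox_OA replicate 3 or 4 or Dox_OOA replicate 4.

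Herpud1 had 89.3, 83.0, 81.8 and 82.9 FPKM in Dox_OOA libraries, against 47.5, 48.8, 43.2 and 46.1 FPKM in Dox_OA libraries (log2 change 0.85, SE 0.06, adjusted p = 2.54e-10). Derl1 averaged 51.0 ± 1.04 FPKM in Dox_OOA cells and 41.6 ± 1.88 FPKM in Dox_OA cells (log2 change 0.29, adjusted p = 3.61e-06), and Edem1 18.9 ± 0.614 and 16.4 ± 0.691 FPKM (0.19, adjusted p = 0.00131). Atf6 had 32.1, 31.6, 30.9 and 31.4 FPKM in Dox_OOA libraries, against 25.1, 25.0, 25.3 and 27.0 FPKM in Dox_OA libraries (log2 change 0.29, SE 0.04, adjusted p = 3.97e-06). In these 4 genes the Dox_OOA and Dox_OA libraries did not overlap. Ern1 (0.13 ± 0.08, adjusted p = 0.252), Xbp1 (-0.09 ± 0.06, 0.269) and Sel1l (0.04 ± 0.04, 0.493) did not pass. The 8 proliferation genes fell here too (median -0.85), and the myotube markers summed to 19.1 to 32.2 FPKM in Dox_OOA libraries and 30.3 to 37.2 FPKM in Dox_OA libraries. The myoblast markers summed to 1035 to 1112 FPKM in Dox_OOA libraries and 945 to 995 FPKM in Dox_OA libraries, with no overlap. Their part in the members' changes was not tested.

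The difference between the oligomycin effects with and without doxycycline was tested as an interaction, the change in doxycycline cells minus the change in water cells. It passed for 19 of 30 members, 11 higher and 8 lower, where 15.1% of all tested genes were called higher and 14.6% lower. For Hspa5 the oligomycin change was -0.29 ± 0.04 with doxycycline and 0.62 ± 0.04 with water, a difference of -0.90 ± 0.05 (adjusted p = 1.95e-11). Hyou1 differed by -0.42 ± 0.05 (adjusted p = 2.12e-06), from changes of -0.32 with doxycycline and 0.10 with water. These were the 2 folding members with a negative difference among those called. The other 9 called folding members had positive differences, that is, smaller falls with doxycycline. For P4hb the changes were -0.30 with doxycycline and -0.95 with water (difference 0.65 ± 0.07, adjusted p = 1.38e-07), and for Sdf2l1 -0.70 and -1.40 (difference 0.70 ± 0.21, adjusted p = 0.0148). Creld2, Manf, Pdia3, Pdia6, Hsp90b1, Calr and Hspa13 differed by 0.32 to 0.61. Dnajb11 (0.25 ± 0.09, adjusted p = 0.0502) did not pass, but passed in 8 of 23 alternatives. Degradation and sensor members that were called all had negative differences. Ern1 differed by -0.76 ± 0.12 (adjusted p = 3.23e-05), Atf6 by -0.59 ± 0.06 (2.04e-08), Herpud1 by -0.53 ± 0.08 (4.36e-05), Derl1 by -0.44 ± 0.05 (1.07e-06), Xbp1 by -0.27 ± 0.08 (0.0151) and Sel1l by -0.27 ± 0.06 (0.00125). For Edem1 the 2 changes were 0.19 ± 0.04 and 0.20 ± 0.04, a difference of -0.01 ± 0.06 (adjusted p = 0.929). Genes outside the members, from lists described below, were divided in this interaction. Folding genes there were 9 higher and 7 lower of 36 tested (median 0.07). Degradation genes there were 4 higher and 3 lower of 27 (median 0.02), and sensors and regulators 2 higher and 3 lower of 11 (median 0.03). The members Sec61b and Sec24d had positive differences of 0.45 ± 0.12 and 0.29 ± 0.06. All 8 proliferation genes also had positive differences (median 1.12), and their part in the members' differences was not tested.

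**Figure D3:**
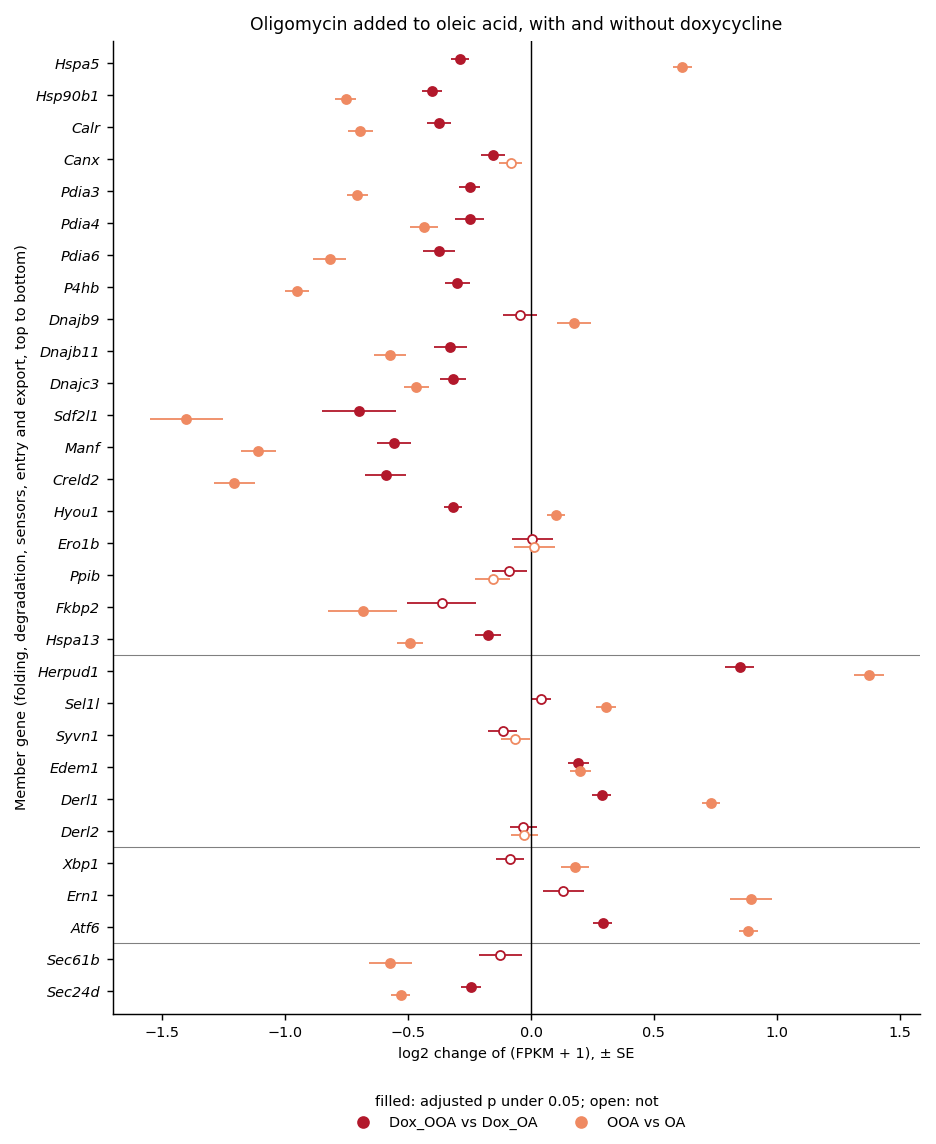
Log2 change of FPKM + 1 with its SE (x axis) for the 30 tested members (y axis, by role), for Dox_OOA against Dox_OA cells (dark red, upper) and OOA against OA cells (orange, lower); filled points passed an adjusted p of 0.05. Hspa5 lies right of 0 in the water arm (0.62) and left of it in the doxycycline arm (-0.29), most other folding genes lie left of 0 in both, and Herpud1, Derl1 and Atf6 lie right of 0 in both.

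Under oligomycin and oleic acid, doxycycline cells were also set directly against water cells. These comparisons share the OOA libraries with the first, so the values are given side by side only. In Dox_OOA against OOA cells 19 of 30 members were called, 9 higher and 10 lower, where 22% of all tested genes were called higher and 23.7% lower. Folding members were 8 higher and 4 lower (median 0.09), 3 of 6 degradation members fell (median -0.16) and all 3 sensors fell (median -0.59), against a median of -0.01 over all genes tested. The Hspa5 level in Dox_OOA cells, 163 ± 6.87 FPKM, was 0.45 times that in OOA cells, 365 ± 11.6 FPKM (log2 change -1.16, SE 0.04, adjusted p = 1.32e-16). Hyou1 (-0.61 ± 0.04), Dnajb9 (-0.48 ± 0.07) and Canx (-0.31 ± 0.05) also fell, with adjusted p of 8.38e-12, 3.84e-06 and 1.36e-05. Herpud1 averaged 84.2 ± 3.41 FPKM in Dox_OOA cells and 154 ± 9.96 FPKM in OOA cells (log2 change -0.86, SE 0.06, adjusted p = 5.85e-11). Derl1 (-0.49 ± 0.04), Ern1 (-0.63 ± 0.08), Atf6 (-0.59 ± 0.04), Xbp1 (-0.36 ± 0.06) and Sel1l (-0.22 ± 0.04) fell as well. The libraries of the 2 groups did not overlap in any gene that fell.

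In the same comparison 8 folding members rose. P4hb averaged 464 ± 22.7 FPKM in Dox_OOA cells and 359.9 ± 22.2 FPKM in OOA cells (log2 change 0.37, SE 0.05, adjusted p = 1.67e-06), and Pdia3 201 ± 10.8 and 164 ± 10.7 FPKM (log2 change 0.29, SE 0.04, adjusted p = 5.17e-06). Creld2 rose by 0.44 ± 0.08, Manf by 0.35 ± 0.07 and Pdia6 by 0.22 ± 0.07 (log2 ± SE), with adjusted p of 0.000131, 0.000298 and 0.0096. Sdf2l1 had 10.2, 10.9, 6.41 and 10.2 FPKM in Dox_OOA libraries, against 7.58, 6.43, 6.31 and 5.39 FPKM in OOA libraries (log2 change 0.47, SE 0.15, adjusted p = 0.0125). Dox_OOA replicate 3 lay within the OOA range and the other 3 above it. Hsp90b1 (0.13, adjusted p = 0.0153) and Hspa13 (0.14, adjusted p = 0.0334) were called higher and were unstable. Hsp90b1 lost the call when fitted on these 2 groups alone (0.0912) or without Dox_OOA replicate 1 or 2 or OOA replicate 3 or 4, and Hspa13 without filtering (0.0704), without Dox_OOA replicate 1 or 2 or without OOA replicate 2, 3 or 4. Sec61b rose to 43.4 ± 4.92 FPKM in Dox_OOA cells, against 33.3 ± 2.23 FPKM in OOA cells (log2 change 0.37, SE 0.09, adjusted p = 0.00143). Proliferation genes were higher too, 8 of 8 (median 0.85), with Mki67 at 22.7 FPKM in Dox_OOA cells and 12.1 FPKM in OOA cells. The myoblast markers summed to 1035 to 1112 FPKM in Dox_OOA libraries and 848 to 920.2 FPKM in OOA libraries, and the fibroblast markers to 16.5 to 18.1 and 13.3 to 14.9 FPKM, neither with overlap. Their part in the members' changes was not tested.

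**Figure D4:**
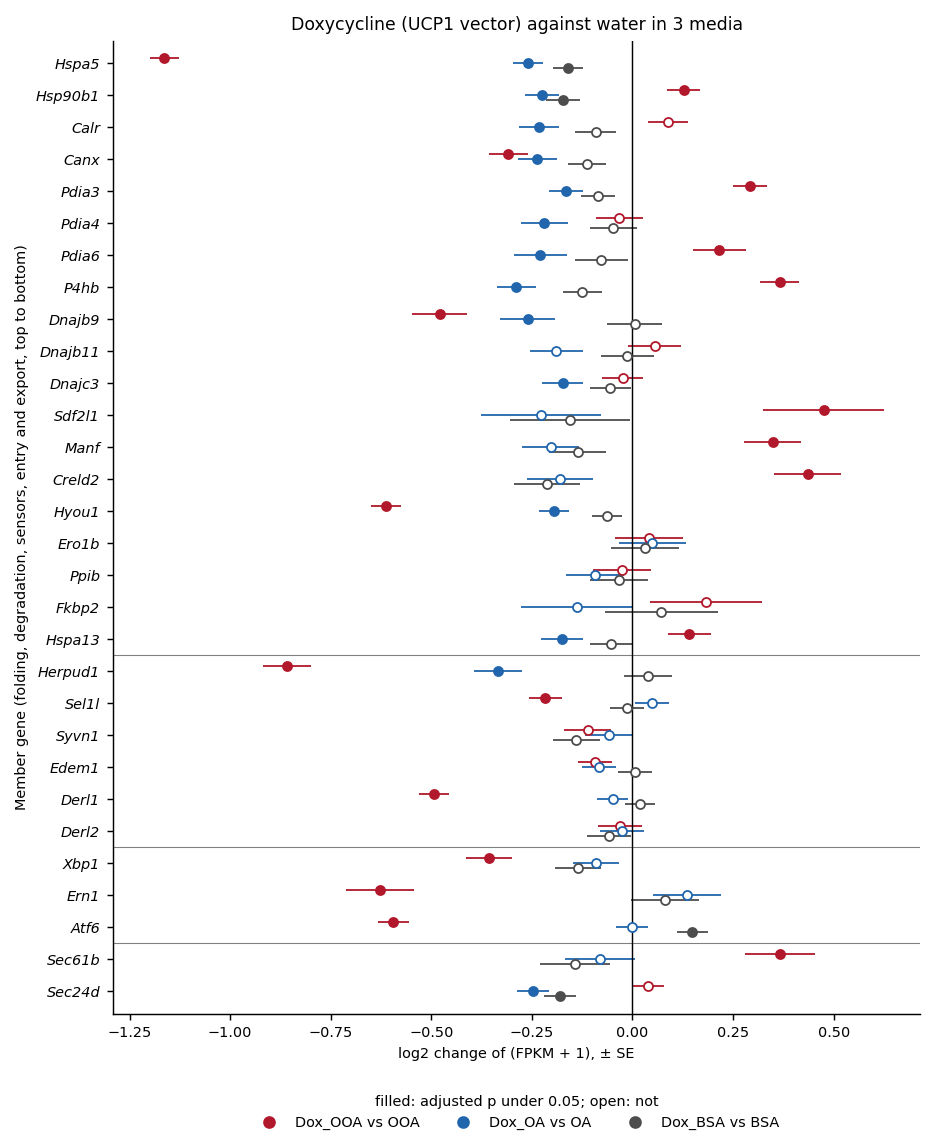
Log2 change of FPKM + 1 with its SE (x axis) for the 30 tested members (y axis, by role), for doxycycline against water cells in oligomycin with oleic acid (Dox_OOA vs OOA, dark red), oleic acid (Dox_OA vs OA, blue) and albumin (Dox_BSA vs BSA, grey); filled points passed an adjusted p of 0.05. In oleic acid the called members all lie left of 0, from -0.33 to -0.17, and with oligomycin they spread from -1.16 for Hspa5 to 0.47 for Sdf2l1.

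In oleic acid without oligomycin, 12 of the 19 folding members were called lower in doxycycline cells, by small steps. In Dox_OA against OA cells 14 of 30 members fell and none rose, where 7.01% of all tested genes were called lower and 4.29% higher. The 14 were 12 folding members, Herpud1 and Sec24d, and the median folding change was -0.20, against -0.01 over all genes tested. The 7 folding members that did not pass were Dnajb11, Sdf2l1, Manf, Creld2, Ppib, Fkbp2 and Ero1b. Their changes ran from -0.23 for Sdf2l1 (adjusted p = 0.366) to 0.05 for Ero1b. P4hb had 582, 577, 549.9 and 573 FPKM in Dox_OA libraries, against 719.7, 723, 688 and 659 FPKM in OA libraries (log2 change -0.29, SE 0.05, adjusted p = 0.000488). Hspa5 had 204, 206, 188 and 197 FPKM in Dox_OA libraries, against 240.4, 252, 228 and 232 FPKM in OA libraries (log2 change -0.26, SE 0.04, adjusted p = 8.26e-05). Herpud1 averaged 46.4 ± 2.42 FPKM in Dox_OA cells and 58.8 ± 4.91 FPKM in OA cells (log2 change -0.33, SE 0.06, adjusted p = 0.000853). No group of 4 overlapped the other in these genes. Canx (-0.24 ± 0.05), Calr (-0.23 ± 0.05), Hsp90b1 (-0.22 ± 0.04), Hyou1 (-0.19 ± 0.04), Pdia3 (-0.17 ± 0.04), Pdia4 (-0.22 ± 0.06), Dnajb9 (-0.26 ± 0.07) and Sec24d (-0.25 ± 0.04) fell too. Of these, Pdia4 lost the call without OA replicate 1 or 2 (adjusted p up to 0.0551) and Dnajb9 without OA replicate 1 (0.0559). Pdia6, Dnajc3 and Hspa13 fell with adjusted p of 0.0266, 0.0318 and 0.0341, and each lost the call without filtering (0.0702, 0.0747 and 0.0785) and when any 1 of 5 or 6 libraries was left out. The 14 calls became 9 without OA replicate 1. The sensors did not pass, with Atf6 at -0.00 ± 0.04 and Ern1 at 0.14 ± 0.08. With each library scaled to a fixed FPKM sum, the members stood at 12 lower and none higher, while calls over all genes turned from 37.9% higher to 54.6% higher. The myotube markers summed to 30.3 to 37.2 FPKM in Dox_OA libraries and 38.6 to 63.5 FPKM in OA libraries, with no overlap, and their part in the members' falls was not tested.

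Oleic acid alone was set against albumin. In OA against BSA cells 5 of 30 members rose and none fell, where 4.67% of all tested genes were called higher and 3.62% lower. Hspa5 averaged 238 ± 10.4 FPKM in OA cells and 212 ± 2.88 FPKM in BSA cells (log2 change 0.16, SE 0.04, adjusted p = 0.00576), Calr 638 ± 13.0 and 534 ± 12.4 FPKM (log2 change 0.26, SE 0.05, adjusted p = 0.00153), and Hsp90b1 237 ± 4.78 and 204 ± 4.89 FPKM (log2 change 0.22, SE 0.04, adjusted p = 0.00116). Atf6 had 25.6, 26.1, 24.2 and 26.5 FPKM in OA libraries, against 21.8, 20.1, 20.9 and 21.4 FPKM in BSA libraries (log2 change 0.27, SE 0.04, adjusted p = 5.58e-05). Dnajb11 (0.22, adjusted p = 0.037) lost the call without filtering (0.0953), at a fixed sum (0.0612) and when any 1 of 6 libraries was left out. The groups did not overlap in any of the 5 genes. The median folding change was 0.11, against 0.01 over all genes tested. Herpud1 (-0.05 ± 0.06) and Xbp1 (-0.15 ± 0.06, adjusted p = 0.124) did not pass. At a fixed sum per library the split of members was 4 higher and 2 lower, the lower ones being Edem1 and Xbp1, and 38.5% of all calls were higher, against 56.4% in the FPKM as deposited. Both muscle marker lists were lower here without overlap, the myotube markers at 38.6 to 63.5 FPKM in OA libraries and 63.9 to 78.9 FPKM in BSA libraries, and the myoblast markers at 973 to 1043 and 1130 to 1178 FPKM. Their part in the members' changes was not tested.

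In doxycycline cells oleic acid moved few members. In Dox_OA against Dox_BSA cells Hsp90b1 rose (log2 change 0.17, SE 0.04, adjusted p = 0.0142) and Herpud1 and Edem1 fell, where 3.39% of all tested genes were called higher and 3.32% lower. Herpud1 had 47.5, 48.8, 43.2 and 46.1 FPKM in Dox_OA libraries, against 66.9, 62.9, 58.4 and 62.2 FPKM in Dox_BSA libraries (log2 change -0.42, SE 0.06, adjusted p = 3.49e-05), with no overlap. Edem1 averaged 16.4 ± 0.691 FPKM in Dox_OA cells and 18.9 ± 0.728 FPKM in Dox_BSA cells (log2 change -0.19, SE 0.04, adjusted p = 0.00549). Hsp90b1 lost the call without Dox_OA replicate 4, and Edem1 when fitted on these 2 groups alone (0.0548). Hspa5 changed by 0.07 ± 0.04 (adjusted p = 0.364) and Atf6 by 0.12 ± 0.04 (0.0702). The oleic acid effect with doxycycline minus that with water was called for 1 member, Herpud1, where 0.093% of all tested genes were called higher and 0.542% lower. For Herpud1 the changes were -0.42 with doxycycline and -0.05 with water, a difference of -0.37 ± 0.08 (adjusted p = 0.0431). The call was lost without filtering (0.118), on the 4 groups alone (0.101) and when any 1 of 11 of the 16 libraries was left out. In Dox_OA and Dox_BSA libraries the myotube markers summed to 30.3 to 37.2 and 37.8 to 51.3 FPKM, the myoblast markers to 945 to 995 and 1084 to 1108 FPKM, and the fibroblast markers to 15.8 to 17.0 and 13.7 to 14.5 FPKM, none with overlap. Their part in the members' changes was not tested.

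In albumin, doxycycline moved few members either. In Dox_BSA against BSA cells Atf6 rose and Hspa5, Hsp90b1 and Sec24d fell, where 1.11% of all tested genes were called higher and 1.07% lower. Hspa5 had 196, 191, 184 and 188 FPKM in Dox_BSA libraries, against 215, 210.0, 209.6 and 215 FPKM in BSA libraries (log2 change -0.16, SE 0.04, adjusted p = 0.0209). Hsp90b1 averaged 181 ± 5.81 FPKM in Dox_BSA cells and 204 ± 4.89 FPKM in BSA cells (log2 change -0.17, SE 0.04, adjusted p = 0.0278), Atf6 23.5 ± 1.01 and 21.1 ± 0.720 FPKM (log2 change 0.15, SE 0.04, adjusted p = 0.0447), and Sec24d 27.9 ± 0.864 and 31.8 ± 1.09 FPKM (log2 change -0.18, SE 0.04, adjusted p = 0.0146). The groups did not overlap in these 4 genes, which were selected by passing the test. The 4 calls became none when the fit used these 2 groups alone and between 0 and 3 when 1 library was left out. The myotube markers summed to 37.8 to 51.3 FPKM in Dox_BSA libraries and 63.9 to 78.9 FPKM in BSA libraries, and the myoblast markers to 1084 to 1108 and 1130 to 1178 FPKM, neither with overlap. Their part in the members' changes was not tested.

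Other genes of the pathway were read from lists of the PERK and ATF4 arm, other folding, degradation and sensor genes, ER entry, N-glycosylation and ER exit. In OOA against OA cells all 12 genes listed for the PERK and ATF4 arm rose (median 2.52). The list does not hold the gene of PERK itself, and ATF4 is shared with other stresses, so PERK activity was not read here. Trib3, a pseudokinase induced by ATF4, averaged 151 FPKM in OOA cells and 3.93 FPKM in OA cells (log2 change 4.95, adjusted p = 2.08e-20), Ddit3, which encodes CHOP, 100.1 and 9.66 FPKM (3.25, 2.47e-20), and Atf4 372 and 126 FPKM (1.56, 3.82e-16). Other folding genes divided, 11 higher and 17 lower of 36 tested. The alpha form of the ER oxidase, Ero1a, rose to 73.6 FPKM in OOA cells, against 16.0 FPKM in OA cells (log2 change 2.14, adjusted p = 5.25e-19), and the thioredoxin-like Tmx3 to 33.7 against 19.0 FPKM (0.79), while the collagen-related isomerase Fkbp14 fell by 0.73 and Dnajc25 by 0.77 on the log2 scale. Other degradation genes were 7 higher and 8 lower of 27, with the ubiquitin ligase Rnf185 (0.71) higher and Edem2 (-0.57) lower. Other sensors and regulators were 4 higher and 3 lower of 11. Wfs1, the ER protein of Wolfram syndrome, averaged 32.7 FPKM in OOA cells and 7.97 FPKM in OA cells (1.91), the ER-anchored factor Nfe2l1 217 and 68.1 FPKM (1.65), and Mbtps2, a protease that cuts ATF6, 9.84 and 4.87 FPKM (0.88). Genes of entry, glycosylation and exit mostly fell. Of 21 entry genes 2 rose and 11 fell, with Ssr1 at -0.68, of 16 N-glycosylation genes 3 rose and 11 fell, with Krtcap2 at 0.99 and Magt1 at -0.47, and of 24 exit and retrieval genes 1 rose and 17 fell, with the retrieval receptor Kdelr3 at -0.75 and the cargo receptor Surf4 at -0.51. All of these shares stand beside 28.5% of tested genes called higher and 28.4% lower.

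In Dox_OOA against Dox_OA cells 11 of 12 PERK and ATF4 arm genes rose (median 1.36), where 16.2% of all tested genes were called higher. Trib3 averaged 40.8 FPKM in Dox_OOA cells and 1.86 FPKM in Dox_OA cells, and Ddit3 30.5 and 9.13 FPKM, so these genes were higher while Hspa5 was lower. The interaction was lower for 10 of the 12 genes (median -0.92), against 14.6% of all tested genes, with Ddit3 at -1.61 and Ppp1r15a, a phosphatase subunit that reverses the PERK signal, at -1.92 (adjusted p = 4.45e-11 and 3.81e-10). Other folding genes were divided in Dox_OOA against Dox_OA cells, 8 higher and 6 lower of 36 (median 0.01). Other degradation genes were 8 higher and 6 lower of 27, where 16.2% of all tested genes were called higher and 17% lower. Ero1a changed by 0.98 in this comparison, with an interaction of -1.16 (adjusted p = 1.66e-10), and Wfs1 by 0.54, with an interaction of -1.36 (adjusted p = 2.03e-10). Of the 24 exit and retrieval genes 14 had a positive interaction and 1 a negative one (median 0.18), against 15.1% and 14.6% of all tested genes. In Dox_OOA against OOA cells all 12 genes of the PERK and ATF4 arm fell (median -1.52), and other folding genes were 10 higher and 11 lower of 36, where 22% of all tested genes were called higher and 23.7% lower. Among the folding genes that fell were Ero1a at 29.5 FPKM in Dox_OOA cells and 73.6 FPKM in OOA cells, and Serpinh1, the collagen chaperone, at 475 and 616 FPKM. In Dox_OA against OA cells 8 of 12 PERK and ATF4 genes fell (median -0.33), and so did 7 of 21 entry, 6 of 16 glycosylation and 9 of 24 exit genes, among them Sec61a1 (-0.31), Rpn1 (-0.25) and Kdelr2 (-0.24), with none higher in these 4 lists, where 7.01% of all tested genes were called lower. There 5 of 8 proliferation genes fell (median -0.25). In Dox_BSA against BSA cells 7 of 12 PERK and ATF4 genes were higher and none lower (median 0.32), where 1.11% of all tested genes were called higher, with Trib3 at 9.83 FPKM in Dox_BSA cells and 2.62 FPKM in BSA cells. In OA against BSA cells 6 of 12 rose (median 0.23), where 4.67% of all tested genes did, and in Dox_OA against Dox_BSA cells 10 of 12 fell (median -0.61), where 3.32% did.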

How the data were processed

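Per the file headers, the authors deposited FPKM values (fragments scaled by gene length and by library size) for 56748 Ensembl genes in 24 libraries. Tools named in the submitters' processing notes are HTSeq, STAR, HISAT2, edgeR, DESeq2 and STAR-Fusion, and the builds are mm39 and GRCm39, none with a version or role. The NEBNext Ultra II RNA kit is named in the labels' protocols. Multiplied by gene length, 100% of values came within 0.01 of whole reads, which gave the depth of each library, 20370651 to 29410667 reads. Precision rests on 4 libraries per group.

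Groups came from the sample titles. limma 3.58.1 in R 4.3.3 was fitted on log2(FPKM + 1), a scale on which the added 1 understates changes of low genes, for the 12904 genes that reached 1 FPKM in 4 or more libraries, with 1 mean per group, 18 residual degrees of freedom and a robust trended variance. Tests were two-sided and adjusted by Benjamini-Hochberg over all tested genes within each of 9 contrasts, at a threshold of 0.05. Alternatives were a pseudocount of 0.1, no filter, a fixed sum per library, limma-voom on recovered reads, no robust estimation, a replicate block, only the groups compared, and each library left out. All 31 members could be named. Of the other lists, up to 4 genes per list and contrast with the smallest p, and any gene of the PERK and ATF4 arm, Ucp1 and Mki67, could be named. The members and lists were chosen with earlier results of these data known. Protein sequences were not analysed here.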

Additional observations from a re-analysis of the deposited data

Results flagged for a closer look

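For 19 of the 30 tested members the oligomycin change with doxycycline minus that with water passed the test. Of all tested genes 15.1% were called higher and 14.6% lower there. The differences (log2) were negative for Hspa5 (-0.90), Hyou1 (-0.42), Herpud1 (-0.53), Sel1l (-0.27), Derl1 (-0.44), Xbp1 (-0.27), Ern1 (-0.76) and Atf6 (-0.59). They were positive for Hsp90b1 (0.35), Calr (0.32), Pdia3 (0.46), Pdia6 (0.44), P4hb (0.65), Sdf2l1 (0.70), Manf (0.55), Creld2 (0.61), Hspa13 (0.32), Sec61b (0.45) and Sec24d (0.29). For Herpud1 the oleic acid change with doxycycline minus that with water also passed, at -0.37.

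In 18 of 186 sets of 4 libraries (31 genes in 6 groups) 1 library lay far from the other 3 by Dixon's ratio, a mark that chance gives to about 1 in 20 sets. Among Dox_OOA libraries these were Sdf2l1 at 6.41 FPKM and Herpud1 at 89.3 FPKM. Among OOA libraries they were Dnajb11 at 18.8, Creld2 at 18.7 and Sec61b at 30.0 FPKM. Among Dox_OA libraries they were Calr at 509.6, Dnajb9 at 14.3, Syvn1 at 14.4, Derl1 at 38.8, Derl2 at 8.21 and Atf6 at 27.0 FPKM. Among OA libraries they were Pdia3 at 261 and Syvn1 at 15.4 FPKM. Among Dox_BSA libraries they were Dnajb9 at 13.1, Ero1b at 1.16 and Hspa13 at 14.9 FPKM. Among BSA libraries they were Pdia6 at 93.4 and Ern1 at 12.1 FPKM. No comparison of group means in the text excluded these libraries.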

How the results depend on the processing

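Over 9 contrasts and all alternatives, 4530 member results were recomputed, of which 4377 kept their side of the threshold, 98 lost a call and 55 gained one. Among results called in the main fit or the alternative, 0 changed direction. For results called in neither, direction was not compared. Leaving out 1 library each gave 4 to 5 called members for OA against BSA, 23 to 26 for OOA against OA, 0 to 3 for Dox_BSA against BSA (4 with all libraries; 0 without BSA replicate 4 or Dox_BSA replicate 2), 9 to 15 for Dox_OA against OA, 17 to 20 for Dox_OOA against OOA, 2 to 4 for Dox_OA against Dox_BSA, 19 to 21 for Dox_OOA against Dox_OA, 19 to 20 for the oligomycin interaction and 0 to 1 for the oleic acid interaction. On limma-voom the 5 calls of OA against BSA became 8. Without filtering, Dox_BSA against BSA gave 2 and the oleic acid interaction 0, and with only the compared groups fitted both gave 0. The cause of these shifts was not tested, and the number of calls over all genes under these alternatives is not given. No alternative scaling moved the median of all genes by over 0.1.

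Same-numbered libraries correlated at -0.0382 to 0.113 in their deviations, so the numbers were not taken as pairs in the main fit. These correlations do not show that replicate number is without bearing on the members. In every group the summed FPKM of the folding members was higher in replicates 1 and 2 than in replicates 3 and 4. In Dox_OOA libraries the sums were 1892, 1874, 1708 and 1724 FPKM, and the cause was not tested. With the replicate block, calls became 8 for OA against BSA, 6 for Dox_OA against Dox_BSA, 22 for the oligomycin interaction and 25 for OOA against OA, and no call was lost. Depth limits Derl3, which had 0 to 16 reads per library.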
